A study of Mus musculus with 12 samples.

Results

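The genes described here are 37 genes of fatty acid oxidation, ketogenesis and the response to the nuclear receptor PPAR-alpha, out of 55357 gene identifiers in each of the deposited count tables. They form a list of names chosen with earlier results of these data known, with no threshold on a measured value. Each was found by the Ensembl identifier of its symbol. By the place of their products, 24 are mitochondrial, 5 peroxisomal, 4 microsomal, 2 are regulators of transcription and 2 are secreted or carried on the cell surface. RNA-seq libraries of 4 groups were compared, with 3 libraries in each. The 2 liver groups came from male wild-type C57BL/6J mice, 8 to 9 weeks old, that were gavaged for 7 days with the vehicle, 2.5% Tween-80, or with 90 mg/kg/d of esculetin, a plant coumarin. Fat supplied 10% of the kcal of the control diet that all of these mice ate on the first 4 days, and 60% of the kcal of the high-fat diet on the last 3 days, and the study states that each liver library pooled 2 mice. The 2 cell groups were RAW264.7 cells, a mouse macrophage line, and both received 25 µg/mL of DIL-labelled oxidised LDL for 24 h, with DMSO or with 40 µg/mL of esculetin. The cell libraries come from 1 line and the labels do not say whether they were separate cultures, so p-values measure only the spread between these libraries.

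As background, fatty acids are activated to acyl-CoA, carried into mitochondria by the carnitine shuttle and shortened there in a repeating spiral of dehydrogenation, hydration, a second dehydrogenation and thiolysis. Peroxisomes shorten the longest chains, and microsomal enzymes of the Cyp4a family oxidise the far end of the chain. In the fasted liver the acetyl-CoA is turned into ketone bodies, and PPAR-alpha, which binds fatty acids, raises transcription of enzymes at all of these sites.

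Total counts ran from 14659876 to 20346460 in the liver libraries and from 13752842 to 20001959 in the cell libraries. Levels are given as CPM, the counts of a gene as parts of the library's total on a scale of 10 to the power of 6, with totals adjusted by the trimmed mean of M-values (TMM). A log2 fold change is esculetin minus control, with its standard error (SE), and called genes are those with an adjusted p under 0.05 in edgeR's quasi-likelihood test, adjusted over every gene tested in that table. The summed level of 9 hepatocyte markers was 104800 to 133400 CPM in the liver libraries and at most 1.10 CPM in the cells. That of 8 macrophage markers was 2118 to 2324 CPM in the DMSO cells and 4851 to 7366 CPM in the esculetin cells. Of these 7 were tested and 4 called higher, where 28.7% of all genes tested in the cells were. Means rose from 638 to 3496 CPM for the lysozyme gene Lyz2 (log2 fold change 2.45) and 848 to 1654 CPM for Csf1r. Cd68, Fcgr1 and Cybb were not called. In the liver no tested gene of 11 cell type lists or of a list of 16 clock genes was called, but many of the markers were too low to test there, among them 8 of 11 for other immune cells, 5 of 6 for skeletal muscle and 4 of 5 for white adipose tissue. The fat cell marker Adipoq, one of these, held 0, 5 and 3 counts in the vehicle libraries and 25, 4 and 58 with esculetin. Plin1 held 0, 7 and 0 and then 14, 2 and 41 counts, and Retn 0, 3 and 0 and then 9, 0 and 27 counts. The summed level of the white adipose list was 4.24 to 25.5 CPM with vehicle and 7.79 to 39.8 CPM with esculetin, so the groups overlapped, and esculetin replicates 1 and 3 were above replicate 2. The sums of the skeletal muscle list (0.874 to 1.29 and then 1.49 to 5.45 CPM) and pancreas list (16.3 to 25.1 and then 25.5 to 30.9 CPM) did not overlap. The muscle gene Acta1 held 1, 1 and 0 and then 48, 0 and 0 counts. Cela1 of the pancreas list had 16.2, 17.9 and 25.1 and then 25.5, 26.2 and 30.8 CPM. In the cells 3 clock genes were called higher and 4 lower, and no other list held more than 1 called gene in each direction. One of these, Spp1, a cholangiocyte marker that macrophages also make, took the sum of its list from 797 to 918 CPM with DMSO to 4793 to 9730 CPM with esculetin. The part of these genes in the results on the cells was not tested. On the first principal component vehicle replicate 1 stood apart from the other 5 liver libraries, and results that change without it are given beside the result. In liver tissue, fewer cells of a type and less RNA per cell cannot be told apart.

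Levels in the controls showed which members each sample could inform on. Per kilobase of transcript, 35 of the 37 members had the higher mean in the vehicle livers, and for 34 of them the 2 control groups did not overlap. The share of all genes with this pattern was not computed, so these counts describe the members only. The median was 112 CPM per kb in the liver and 16.8 CPM per kb in the cells. The highest in the liver was Acaa1b, a peroxisomal thiolase, at 1143 CPM per kb (range 1012 to 1220). It was followed by Acaa2, the mitochondrial thiolase of medium chains, at 812 CPM per kb (633 to 959) and by Ech1, an isomerase of unsaturated fatty acids, at 537 CPM per kb (431 to 640). The range of Acaa1b lay above both, and those of Acaa2 and Ech1 overlapped slightly. In the cells Ucp2, a carrier of the inner mitochondrial membrane, led at 302 CPM per kb (260 to 327), clear of Acaa1a at 82.7 (77.9 to 86.9) and Etfa at 71.0 CPM per kb (70.3 to 71.4). Hadh at 62.5 and Ech1 at 61.1 CPM per kb came next, with ranges that overlapped. The 2 members higher in the cells were Ucp2, which had 11.9 CPM per kb in the liver, and Ppargc1b, a coactivator of nuclear receptors, at 4.93 against 0.451 CPM per kb.

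**Figure D1:**
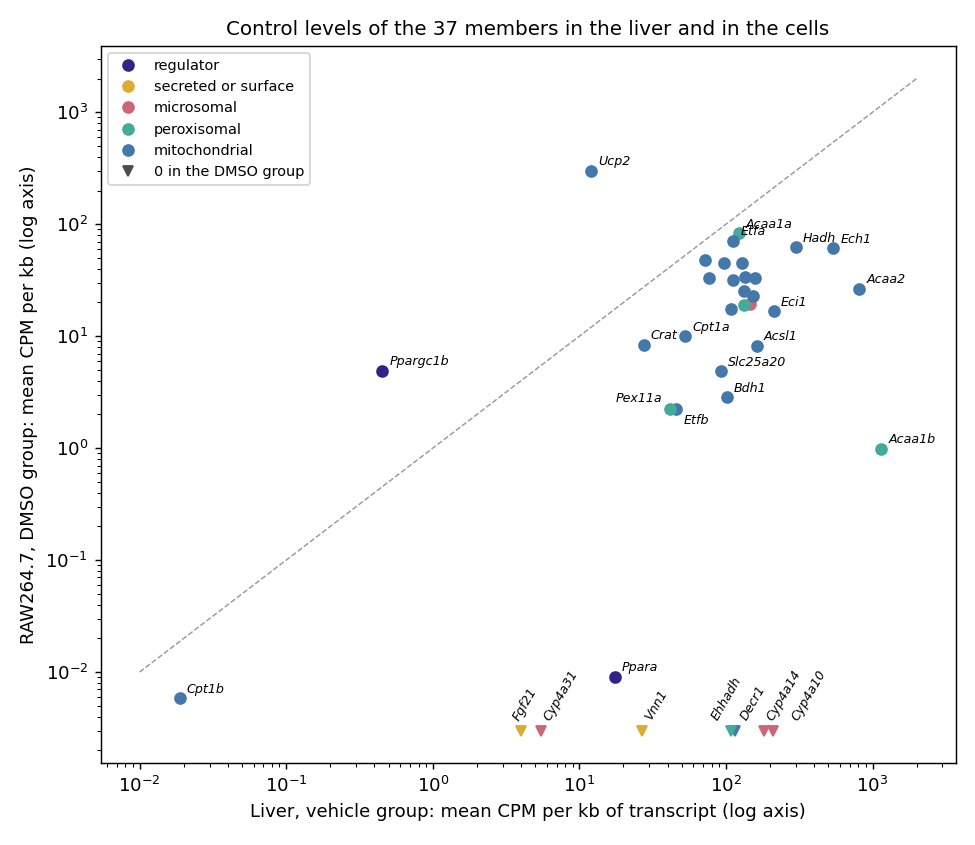
Mean level of each of the 37 members in the DMSO cells (vertical, CPM per kb of transcript, log axis) against the vehicle livers (horizontal, log axis), coloured by the place of the product, with the dashed line at equal levels; a dense group of points is left unlabelled. Ucp2 and Ppargc1b lie above the line, and the triangles at the bottom are members with no count in the DMSO group.

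In the cells 9 members were too low to test. Of these, 6 had no count in any of the 6 cell libraries: the microsomal Cyp4a10, Cyp4a14 and Cyp4a31, the hormone gene Fgf21, the pantetheinase gene Vnn1 and Decr1, which encodes the mitochondrial 2,4-dienoyl-CoA reductase. A count of 0 allows up to 3 counts, which is 0.150 to 0.218 CPM in these libraries. Ppara itself held 0, 0 and 2 counts in the DMSO cells and 0, 0 and 1 in the esculetin cells, against 802 to 1403 counts in every liver library. Ehhadh, the bifunctional enzyme of the peroxisome, held 0, 0 and 0 counts with DMSO and 3, 0 and 6 with esculetin. Cpt1b, the muscle form of the outer carnitine transferase, held 0, 1 and 0 and then 5, 9 and 0 counts. It was also the 1 member too low to test in the liver, with 2, 1 and 0 counts in the vehicle group and none in the esculetin group. The receptor gene and the 3 Cyp4a members could thus be followed only in the liver, while 28 members were tested in both.

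In the liver none of the 36 tested members was called, while 11 of all 12813 tested genes were (0.0859%). At an unadjusted p under 0.05, 10 members lay lower with esculetin and 0 higher, against 4.98% of all tested genes lower and 3.39% higher. The groups did not overlap for 8 members, all of them with lower values in the esculetin group, against 7.95% of all genes lower and 6.52% higher. Because the list was chosen with earlier results known, these shares describe it and are not a test. Other tools called 2 members (DESeq2, Cyp4a31 and Fgf21), 1 member (limma-voom, Cyp4a31) and 2 members (limma-voom with sample weights, Cyp4a31 and Fgf21). Of all 12813 tested genes, DESeq2 called 98, limma-voom 11 and limma-voom with sample weights 98. The study's own criterion, an unadjusted p under 0.05 and a fold change over 1.5 in limma-voom, took Cyp4a31, Fgf21, Cyp4a14, Crat and Ppargc1b, all 5 lower, where 3.89% of all genes met it. The median log2 fold change of the 36 members was -0.07, against -0.02 over all tested genes, and it was -0.13 without vehicle replicate 1.

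By the place of the product the values differed in size. Of the 23 mitochondrial members tested 1 had an unadjusted p under 0.05, and their median log2 fold change was -0.05. It was 3 of the 5 peroxisomal members, with a median of -0.30, and 3 of the 4 microsomal members, with a median of -0.81. Both secreted or surface members and 1 of the 2 regulators were also among the 10. These are counts of single genes, and no test compared the places with each other.

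**Figure D2:**
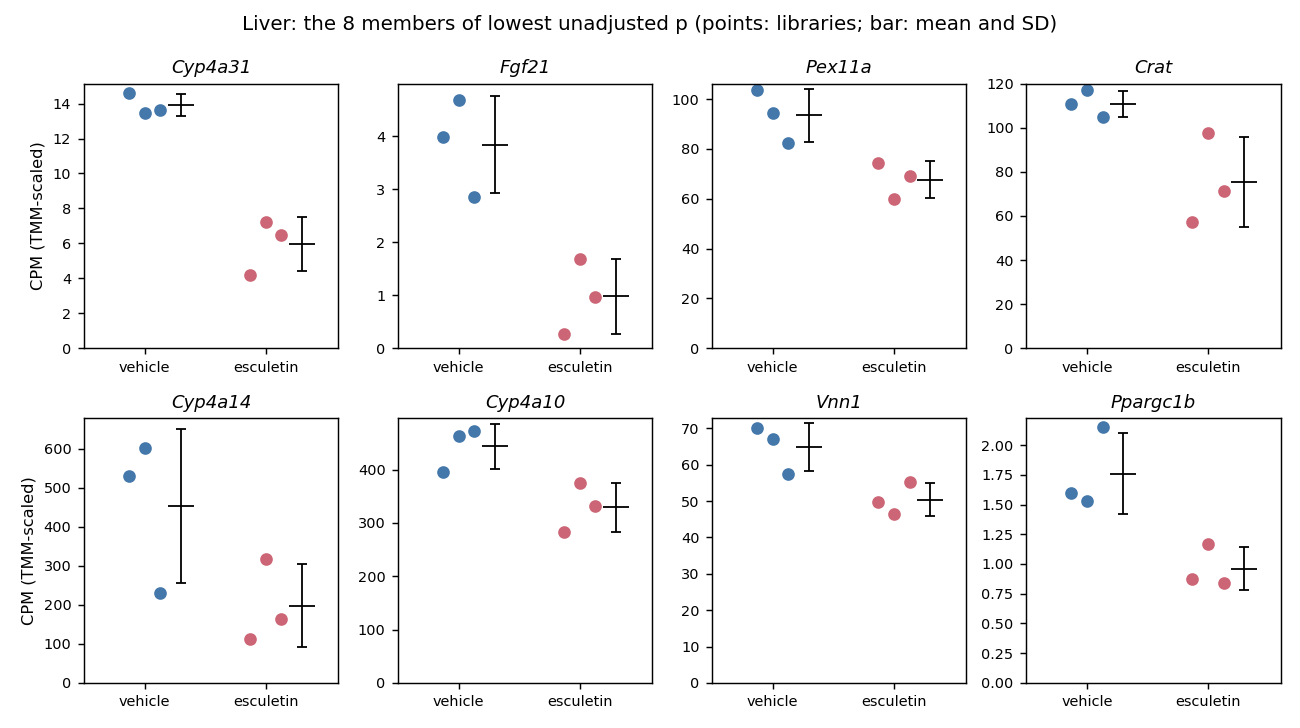
CPM in the 3 vehicle and 3 esculetin liver libraries (points; black bars, mean and SD) for the 8 members of lowest unadjusted p, with each vertical axis starting at 0. The groups do not overlap except for Cyp4a14, where esculetin replicate 2 (317 CPM) lies above vehicle replicate 3 (231 CPM).

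The microsomal Cyp4a enzymes place a hydroxyl group on the last carbon of a fatty acid, and their genes are classical targets of PPAR-alpha. Cyp4a31 (ENSMUSG00000028712, chromosome 4, 115420818 to 115436212, plus strand, GRCm39) had 14.6, 13.5 and 13.6 CPM in the vehicle libraries and 4.20, 7.21 and 6.47 CPM with esculetin. Every esculetin library was thus below every vehicle library, by a log2 fold change of -1.23 (SE 0.20, adjusted p = 0.0518), or 2.34-fold. This was the lowest p of any member, and it just missed the threshold. Of 16 alternative settings 5 called it, and its adjusted p ran from 3.39e-07 without a filter on low counts to 0.409 with the counts of close copies added together. Cyp4a14 (ENSMUSG00000028715, chromosome 4, 115343397 to 115353344, minus strand) had 529, 601 and 231 CPM and then 111, 317 and 165 CPM. Its groups overlapped, and its log2 fold change of -1.20 had a wide error (SE 0.37, adjusted p = 0.372). Cyp4a10 (ENSMUSG00000066072, chromosome 4, 115375461 to 115390849, plus strand) had 396, 464 and 473 CPM and then 283, 375 and 332 CPM. Here the groups did not overlap, at a log2 fold change of -0.43 (SE 0.14, adjusted p = 0.417). Aldh3a2, the aldehyde dehydrogenase that finishes the oxidation of long-chain alcohols, had 449, 521 and 376 CPM and then 443, 347 and 406 CPM, which overlapped (log2 fold change -0.17, SE 0.15).

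The 3 Cyp4a members lie in 1 cluster with 3 further genes of the family, which were taken from the list of other pathway genes. Cyp4a32 (log2 fold change -0.15, SE 0.14), Cyp4a12a (0.08, SE 0.25) and Cyp4a12b (0.53, SE 0.30) overlapped between the groups. No test compared the genes of the cluster with each other. These genes are close copies and the sources used here do not state how reads with several places in the genome were counted, so counts may be split among them. With the counts of Cyp4a10, Cyp4a31 and Cyp4a32 added together the log2 fold change was -0.43 (SE 0.14, adjusted p = 0.409). Most counts of the sum are those of Cyp4a10, and the value of Cyp4a31 alone is uncertain. The likeness reaches past the coding part. The 150 bases before the annotated start of each canonical transcript are shown for the pair, with capitals for runs of at least 12 bases that occur in both windows (chr4:115375311-115375460 and chr4:115420668-115420817, plus strand, GRCm39).
Cyp4a10: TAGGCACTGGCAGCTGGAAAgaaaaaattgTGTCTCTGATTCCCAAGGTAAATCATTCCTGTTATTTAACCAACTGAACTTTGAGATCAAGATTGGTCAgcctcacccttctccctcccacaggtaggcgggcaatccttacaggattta
Cyp4a31: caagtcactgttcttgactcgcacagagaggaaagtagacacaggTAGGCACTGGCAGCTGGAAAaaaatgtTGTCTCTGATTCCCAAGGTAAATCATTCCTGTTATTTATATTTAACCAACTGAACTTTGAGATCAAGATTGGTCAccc
In the Cyp4a10 window 89 of the 150 bases lie in such shared runs, and in the Cyp4a31 window 95 do. The shared block lies nearer to the annotated start of Cyp4a31 than to that of Cyp4a10. In the RAW264.7 cells all 3 Cyp4a members were at 0 counts, as above.

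Fgf21 encodes a hormone that the liver releases on fasting and that is a target of PPAR-alpha. Fgf21 (ENSMUSG00000030827, chromosome 7, 45263301 to 45266963, minus strand) had 65, 95 and 49 counts in the vehicle libraries and 5, 26 and 15 with esculetin. As CPM these were 3.99, 4.69 and 2.86 and then 0.273, 1.69 and 0.971, so the groups did not overlap at a low level. The log2 fold change was -2.004 (SE 0.46, adjusted p = 0.186), or 4.01-fold, the largest of any member tested in the liver. The value ran from -1.54 without esculetin replicate 1 to -2.67 without esculetin replicate 2. It was called in 4 of 15 alternative settings, with adjusted p from 8.92e-07 to 0.806. Vnn1, a pantetheinase of the hepatocyte surface and another PPAR-alpha target, had 70.0, 67.2 and 57.4 CPM and then 49.7, 46.4 and 55.2 CPM. Its log2 fold change was -0.36 (SE 0.13, adjusted p = 0.470), again without overlap. The 80 bases before the annotated start of Fgf21 (chr7:45264915-45264994, minus strand, GRCm39) are shown because they hold a TATAAA match, in capitals, 28 to 23 bases before the start.
Fgf21: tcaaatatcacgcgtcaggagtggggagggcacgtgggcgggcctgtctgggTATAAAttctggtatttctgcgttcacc

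Peroxisomal members were followed next. Pex11a, which takes part in the division of peroxisomes, had 104, 94.3 and 82.5 CPM in the vehicle libraries and 74.3, 59.8 and 69.0 CPM with esculetin. All esculetin values lay below all vehicle values (log2 fold change -0.47, SE 0.13, adjusted p = 0.310). Ehhadh had 366, 343 and 263 CPM and then 243, 286 and 224 CPM, with 1 esculetin library above the lowest vehicle library (log2 fold change -0.37, SE 0.15, adjusted p = 0.537). Acaa1b had 1710, 2022 and 2061 CPM and then 1649, 1617 and 1449 CPM, which did not overlap (log2 fold change -0.30, SE 0.13, adjusted p = 0.582). The other thiolase, Acaa1a, lay the other way within its error, with 177, 225 and 263 CPM and then 247, 242 and 245 CPM (log2 fold change 0.14, SE 0.14). Hsd17b4, the second bifunctional enzyme of the peroxisome, had 478, 547 and 490 CPM and then 525, 482 and 503 CPM, at a log2 fold change of -0.0047 (SE 0.12). Pex11a, Ehhadh and Acaa1b thus had lower values with esculetin, and the other two members did not.

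PPAR-alpha binds, with its partner RXR, to 2 copies of AGGTCA in the same direction with 1 base between them, called a direct repeat. In the 1000 bases before and 50 after the canonical start this repeat, with at most 1 mismatch on either strand, was found in 1 of the 37 members, Acaa1b, and in 1.85% of 21770 protein-coding genes. With no mismatch it was in 0 members and 0.119% of genes. In the shorter window of 250 bases before and 50 after the start, it was in 0 members with at most 1 mismatch and in 0.455% of genes. The match before Acaa1b runs from -955 to -943 relative to the start. It is shown with 20 bases on each side (chr9:118987084-118987136, minus strand, GRCm39) and in capitals. It lies on the strand opposite to the gene, so the repeat appears as its reverse complement.
Acaa1b: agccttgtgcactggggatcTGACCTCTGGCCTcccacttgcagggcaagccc
Motifs of 3 other factors were searched on both strands in the shorter window. TTGCNNAA, a site of C/EBP proteins, was in 3 members (Acads, Ech1 and Acaa1a) and in 10.7% of all genes. CCAAT, a site of NF-Y, was in 15 members and in 39.9% of genes. The letters TATAAA, those of the TATA box, were in 4 members (Fgf21, Cyp4a31, Ech1 and Etfa) and 13.2% of genes. Of these 4 matches only that of Fgf21 lay on the strand of its gene. Among 90 matches checked in the wider window of 1000 bases before and 50 after the start, none of one motif overlapped one of another. That check left out some members. A match is a description of letters, and binding was not measured here.

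The regulators had low or moderate levels in the liver. Ppara (ENSMUSG00000022383, chromosome 15, 85618656 to 85687067, plus strand) had 65.1, 69.2 and 51.2 CPM in the vehicle libraries and 49.7, 52.1 and 53.2 CPM with esculetin. These overlapped only through vehicle replicate 3 (log2 fold change -0.26, SE 0.13, adjusted p = 0.636). Ppargc1b had 26, 31 and 37 counts and then 16, 18 and 13 counts, or 1.597, 1.53 and 2.16 CPM and then 0.872, 1.17 and 0.841 CPM. It was the only regulator whose liver groups did not overlap, at a log2 fold change of -0.87 (SE 0.34, adjusted p = 0.523).

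The mitochondrial members in the liver lay close to 0, with the exception of Crat. Crat, the acetyltransferase that balances acetyl-CoA and acetylcarnitine, had 111, 117 and 105 CPM and then 57.2, 97.5 and 71.4 CPM. The groups did not overlap, and the log2 fold change was -0.56 (SE 0.17, adjusted p = 0.354), or 1.47-fold. The 13 genes of the acyl-CoA dehydrogenases, the spiral and the auxiliary isomerases and reductase had log2 fold changes from -0.10 to 0.29, with SEs of at most 0.16, and their 2 groups of libraries overlapped for every one. The upper end was Acads, the short-chain dehydrogenase, with 180, 250 and 288 CPM and then 283, 287 and 309 CPM. The lower end was Hadha, a subunit of the trifunctional protein, with 374, 422 and 384 CPM and then 365, 374 and 358 CPM. The 3 genes that pass electrons on to the respiratory chain, Etfa, Etfb and Etfdh, had log2 fold changes of 0.04 to 0.08. In the carnitine shuttle, Cpt1a, the rate-setting outer transferase, had 335, 377 and 336 CPM and then 337, 338 and 313 CPM (log2 fold change -0.09, SE 0.12). Acsl1, which activates long chains, had 977, 1063 and 777 CPM and then 887, 778 and 807 CPM (log2 fold change -0.19, SE 0.14). Over the 23 tested mitochondrial members the 95% intervals reached from -0.93, the lower end for Crat, to 0.64, the upper end for Acads.

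Ketone bodies were covered by 1 member, Bdh1, which reduces acetoacetate to beta-hydroxybutyrate. It had 304, 314 and 334 CPM in the vehicle livers and 294, 292 and 312 CPM with esculetin, with overlap (log2 fold change -0.08, SE 0.11).

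Within the esculetin group the liver libraries differed in the same order for several of these members. Of the 8 members of lowest p, 6 had their highest esculetin value in replicate 2 and 5 had their lowest in replicate 1. Replicate 2 was also the esculetin library with the fewest counts of Adipoq, Plin1 and Retn, and the part of adipose RNA in these values was not tested. Those lowest in replicate 1 were Cyp4a31, Fgf21, Crat, Cyp4a14 and Cyp4a10. Replicate 1 also held the 48 counts of Acta1, and the part of muscle RNA in these values was not tested. Members that follow the same libraries are not separate observations.

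The wider pathway was taken from a list of 77 other genes of fatty acid handling, peroxisomes and PPAR targets. In the liver 75 were tested and 2 were called, both lower, where 0.0859% of all tested genes were called. They were Acot3, an acyl-CoA thioesterase of peroxisomes, with 13.9, 6.86 and 4.78 CPM and then 0.327, 1.36 and 0.388 CPM, and Pdk4, a kinase that blocks the entry of pyruvate into the citrate cycle. Acot3 fell by 3.63 on the log2 scale (SE 0.51, adjusted p = 0.0225), or 12.4-fold, with values from -3.09 without vehicle replicate 1 to -4.57 without esculetin replicate 2. Pdk4 had 19.96, 23.7 and 16.4 CPM and then 6.38, 9.48 and 6.67 CPM, and it fell by 1.42 on the log2 scale (SE 0.20, adjusted p = 0.0225). Both calls were lost (0 genes of the list called) without vehicle replicate 2, and likewise without replicate 1 or 3 of the esculetin group. Acot3 was also not called by limma-voom (adjusted p = 0.0795, range over the alternatives 1.86e-28 to 0.274). At an unadjusted p under 0.05 the list held 15 lower and 8 higher genes, against 4.98% of all tested genes lower and 3.39% higher. Its median log2 fold change was 0.03. In the cells Acot3 had 0 counts and Pdk4 was too low to test.

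In the RAW264.7 cells more of the same genes were called. Of the 28 members tested 18 were called, 16 lower and 2 higher with esculetin. Calls were common in these cells: 57.7% of 13277 tested genes were called, 29.0% lower and 28.7% higher. The members called lower were thus 16 of 28 where the table held 29.0%, and those called higher 2 of 28 where it held 28.7%. Here too the list was chosen with earlier results known, so the shares describe it and test nothing. The groups did not overlap for 16 members that were lower, against 33.1% of all genes. The median log2 fold change of the 28 was -0.29, against -0.01 over all tested genes. The median of the members' log2 CPM relative to the DMSO mean was -0.08, 0.03 and 0.02 in the DMSO libraries and -0.43, -0.27 and -0.28 in the esculetin libraries, which did not overlap. By the study's own criterion 10 members were called, 9 of them lower, where 38.0% of all genes met it.

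**Figure D3:**
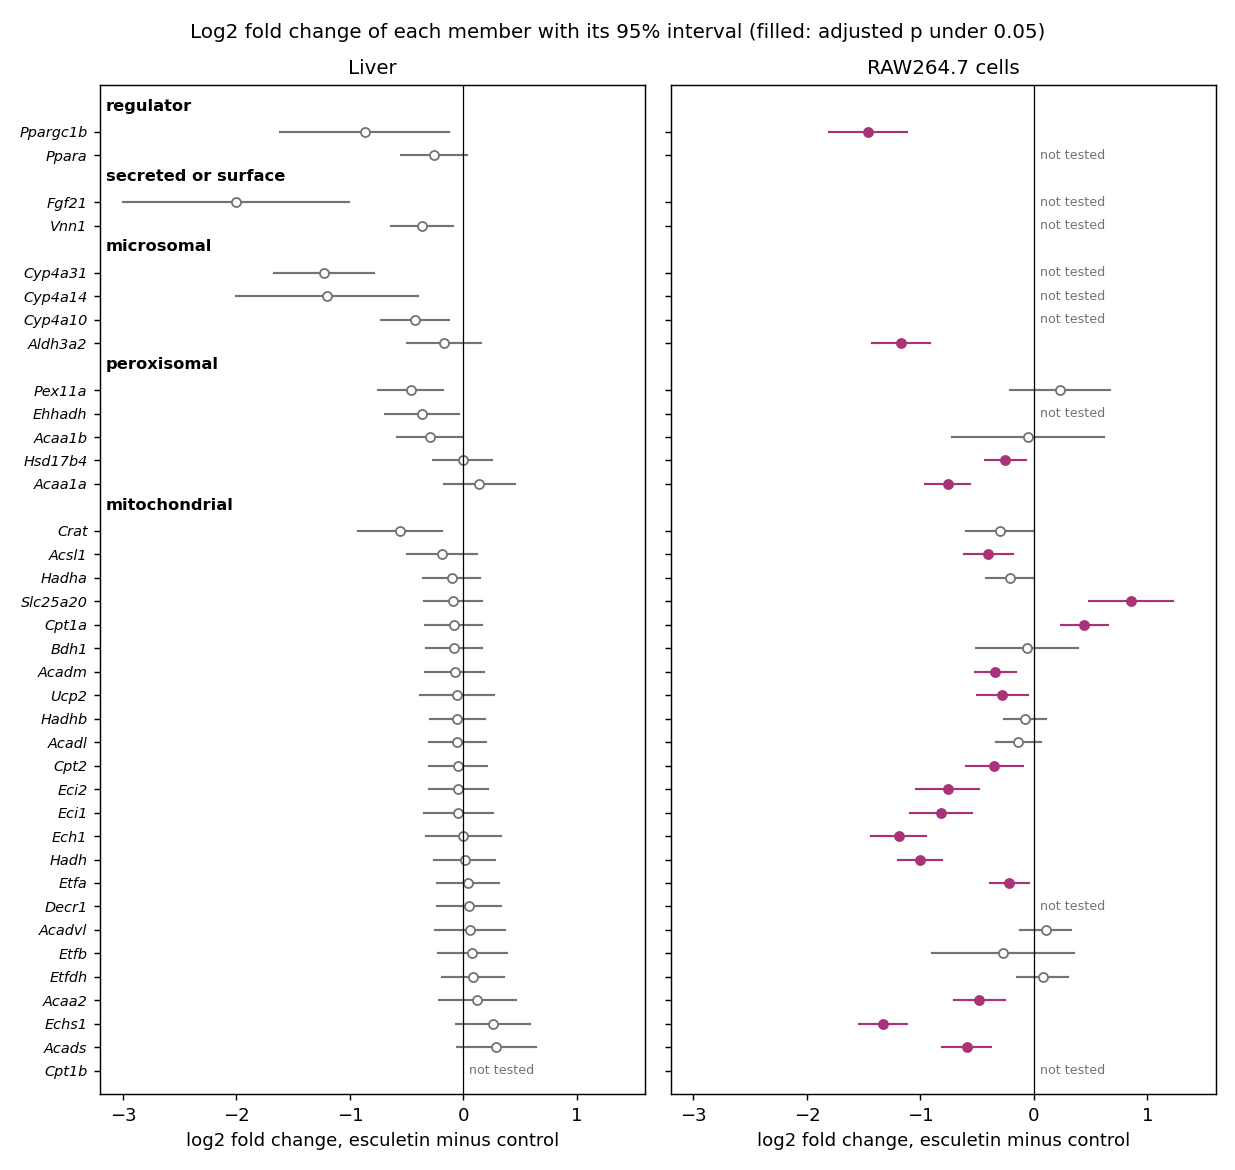
Log2 fold change, esculetin minus control, of each member in the liver (left) and in the RAW264.7 cells (right), grouped by the place of the product, with 95% intervals; filled points were called at an adjusted p under 0.05. No liver member was called, the largest liver values are outside the mitochondrial group, and in the cells 16 points are called below 0 and 2, Slc25a20 and Cpt1a, above it.

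Of the 12 acyl-CoA dehydrogenases, spiral enzymes and auxiliary enzymes of mitochondria tested in the cells 8 were called lower and 0 higher. Over all genes tested there 29.0% were called lower and 28.7% higher. The median log2 fold change of the 12 was -0.54. Echs1, the short-chain enoyl-CoA hydratase (ENSMUSG00000025465, chromosome 7, 139684839 to 139696570, minus strand), had 53.0, 51.7 and 55.9 CPM with DMSO and 20.7, 21.5 and 21.6 CPM with esculetin. It fell by 1.33 on the log2 scale (SE 0.10, adjusted p = 1.03e-06), or 2.52-fold. Ech1, which moves a double bond of unsaturated chains, had 72.6, 87.2 and 72.8 CPM and then 35.8, 35.9 and 30.2 CPM (log2 fold change -1.19, SE 0.11). Hadh, the dehydrogenase of the third step for short and medium chains, had 104, 122 and 109 CPM and then 56.2, 56.6 and 54.5 CPM (log2 fold change -1.003, SE 0.09). In each of these the lowest DMSO library was well above the highest esculetin library.

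Both enoyl-CoA isomerases fell as well. Eci1 had 18.3, 20.9 and 19.5 CPM and then 11.6, 10.1 and 11.5 CPM, a log2 fold change of -0.82 (SE 0.12, adjusted p = 0.000184). Eci2 had 42.0, 45.7 and 41.6 CPM and then 28.7, 27.1 and 20.9 CPM, a log2 fold change of -0.76 (SE 0.13). The last step of the spiral is thiolysis, and Acaa2 had 44.1, 48.0 and 47.0 CPM and then 36.9, 31.4 and 31.5 CPM (log2 fold change -0.48, SE 0.10, adjusted p = 0.00204). The trifunctional protein, which carries the last 3 steps for long chains, was not called for either subunit. Hadha had 171, 189 and 189 CPM and then 140, 157 and 176 CPM (log2 fold change -0.21, SE 0.10, adjusted p = 0.0820), and Hadhb had a log2 fold change of -0.08 (SE 0.08, adjusted p = 0.435).

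At the first step the dehydrogenases of shorter chains were called and those of longer chains were not. Acads fell by 0.59 on the log2 scale (SE 0.10, adjusted p = 0.000323), from 75.0, 89.3 and 87.2 CPM to 51.2, 57.7 and 57.7 CPM. Acadm, for medium chains, fell by 0.34 (SE 0.08, adjusted p = 0.00460), from 70.4, 68.1 and 67.9 CPM to 52.8, 57.6 and 52.7 CPM. The long-chain dehydrogenase Acadl (log2 fold change -0.14, SE 0.09) and the very-long-chain Acadvl (0.10, SE 0.10) were not called. Of the electron carriers Etfa was called (log2 fold change -0.22, SE 0.08, adjusted p = 0.0316), while Etfb (-0.27, SE 0.29) and Etfdh (0.08, SE 0.10) were not. Differences between these chain-length classes were not tested.

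**Figure D4:**
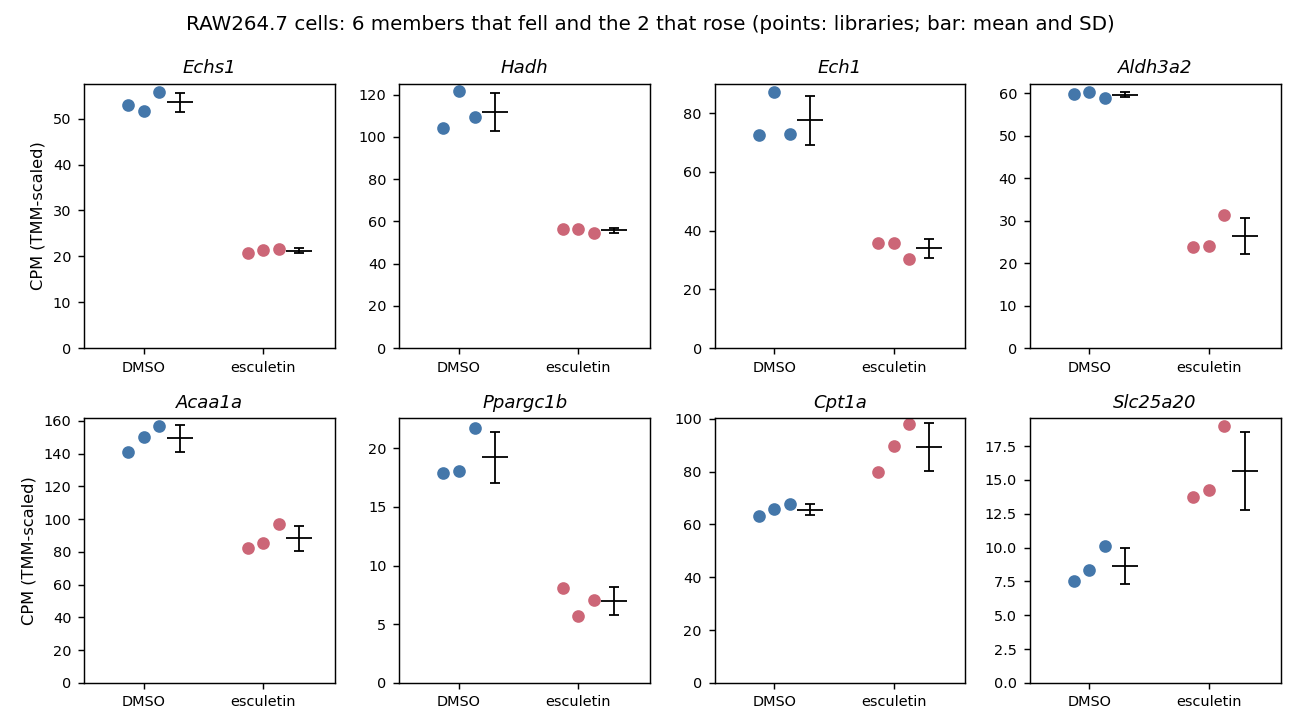
CPM in the 3 DMSO and 3 esculetin libraries of RAW264.7 cells (points; black bars, mean and SD) for 6 members that fell and the 2 that rose, with each vertical axis starting at 0. In all 8 panels the groups do not overlap.

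The 2 members that rose belong to the carnitine shuttle. Slc25a20, the carrier that exchanges acylcarnitine for carnitine across the inner membrane (ENSMUSG00000032602, chromosome 9, 108539250 to 108562760, plus strand), had 7.52, 8.34 and 10.1 CPM with DMSO and 13.8, 14.2 and 19.0 CPM with esculetin. It rose 1.81-fold (log2 fold change 0.86, SE 0.17, adjusted p = 0.00116). Cpt1a had 63.2, 66.1 and 67.7 CPM and then 79.99, 89.8 and 98.2 CPM, and it rose 1.36-fold (log2 fold change 0.44, SE 0.09, adjusted p = 0.00180). The other shuttle members did not rise with them. Cpt2, the inner transferase, had 38.9, 41.5 and 44.5 CPM and then 29.9, 30.8 and 37.3 CPM, a log2 fold change of -0.35 (SE 0.11, adjusted p = 0.0218). Crat was not called (log2 fold change -0.30, SE 0.14, adjusted p = 0.0800). Acsl1, upstream of the shuttle, fell by 0.40 on the log2 scale (SE 0.10, adjusted p = 0.00443), from 49.1, 45.7 and 48.2 CPM to 33.2, 38.6 and 36.5 CPM.

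Outside mitochondria, Aldh3a2 was the 1 microsomal member expressed in the cells. It had 59.9, 60.3 and 59.0 CPM with DMSO and 23.9, 24.1 and 31.3 CPM with esculetin, and it fell 2.25-fold (log2 fold change -1.17, SE 0.12, adjusted p = 9.63e-06). Of the peroxisomal members Acaa1a had 141, 150 and 157 CPM and then 82.4, 85.3 and 96.9 CPM, and it fell 1.69-fold (log2 fold change -0.76, SE 0.09, adjusted p = 3.37e-05). Hsd17b4 had 71.4, 74.7 and 70.7 CPM and then 58.6, 61.2 and 62.3 CPM (log2 fold change -0.25, SE 0.08, adjusted p = 0.0197). Pex11a was low and not called, with 4.35, 5.33 and 5.45 CPM and then 6.59, 4.64 and 6.47 CPM (log2 fold change 0.23, SE 0.20; -0.05 in limma-voom with sample weights). Acaa1b, the member with the highest level per kb in the liver, had 1.66, 1.67 and 1.70 CPM and then 2.05, 1.57 and 1.28 CPM in the cells (log2 fold change -0.05, SE 0.31; 0.10 without esculetin replicate 3). Acaa1a and Acaa1b are close copies on the same chromosome, and whether these few counts are reads of Acaa1a was not tested. With both genes added together the log2 fold change was -0.75 (SE 0.09), next to that of Acaa1a alone.

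Of the regulators Ppargc1b was called in the cells. It had 17.9, 18.02 and 21.7 CPM with DMSO and 8.12, 5.73 and 7.08 CPM with esculetin, and it fell 2.76-fold (log2 fold change -1.46, SE 0.16, adjusted p = 1.58e-05). This was the largest fall of any tested member in the cells. Ucp2, the member with the highest level per kb there, had 1043, 1272 and 1310 CPM and then 970, 997 and 1018 CPM (log2 fold change -0.28, SE 0.10, adjusted p = 0.0352). Bdh1 was not called, with 7.98, 9.52 and 9.34 CPM and then 6.29, 7.91 and 11.3 CPM. The 4 called members of highest p, Cpt2, Hsd17b4, Etfa and Ucp2, lost their calls without DMSO replicate 2, without DMSO replicate 3 and without esculetin replicate 2, which left 14 called members each time. Etfa was also lost without esculetin replicate 3.

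Among the 77 other pathway genes 53 were tested in the cells and 34 were called, 19 lower and 15 higher, with a median log2 fold change of -0.04. This count is read against the 57.7% of all tested genes called in these cells, and the list was not tested against other genes. Among the 8 of lowest p, Plin2, which coats lipid droplets, had 37.4, 36.3 and 36.1 CPM with DMSO and 256, 353 and 506 CPM with esculetin, a rise of 10.2-fold (log2 fold change 3.34, SE 0.20). The fatty acid transporters Slc27a1 (log2 fold change 1.01, SE 0.10) and Slc27a4 (1.33, SE 0.13) rose as well. Acat1 and Oxct1, which break ketone bodies down to acetyl-CoA, had log2 fold changes of -0.95 (SE 0.08) and -0.91 (SE 0.08). Acsl5, another acyl-CoA synthetase (-0.89, SE 0.08), Acaca, the first enzyme of fatty acid synthesis (-1.01, SE 0.09), and Lpin1, a phosphatidate phosphatase (-0.96, SE 0.10), also fell. Genes of related roles moved both ways. After their values were seen, 4 of the genes called higher were singled out: the acyl-CoA synthetase genes Acsl4 (log2 fold change 0.98, SE 0.12) and Acsl3 (0.46, SE 0.10), Acadsb, an acyl-CoA dehydrogenase of branched chains (0.64, SE 0.11), and Crot, the carnitine transferase of peroxisomes (0.52, SE 0.13).

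Whether esculetin had unequal effects in cells and liver was tested directly, in 1 model of all 12 libraries. Of the 28 members tested in both, 12 differed at an adjusted p under 0.05, 9 with the lower effect in the cells and 3 with the higher. Over all 15709 genes of that model 13.7% had the lower effect in the cells and 13.4% the higher. The tissue, the dose, the route, the time and the lipid given differ between the 2 experiments, so these cannot be told apart. The largest difference was that of Echs1, at -1.63 (cells minus liver, log2 scale, SE 0.19, adjusted p = 1.47e-05), where the liver value was 0.26 and the cell value -1.33. Ech1 (-1.23, SE 0.20), Hadh (-1.06, SE 0.16) and Aldh3a2 (-1.05, SE 0.20) followed. Slc25a20 had the largest difference in the other direction, at 0.91 (SE 0.19, adjusted p = 0.00242), and Cpt1a (0.49, SE 0.15) and Pex11a (0.65, SE 0.22, adjusted p = 0.0357) were the other two. Pex11a did not pass in limma-voom (adjusted p = 0.0921), nor Acaa2 with another scaling, that of DESeq2 (adjusted p = 0.0537), against 0.0277 with TMM. For Pex11a the test of the difference passed although neither effect was called alone. Ppargc1b, with lower values in both experiments, did not differ at this threshold (difference -0.63, SE 0.35, adjusted p = 0.199).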

How the data were processed

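The authors deposited 2 tables of whole-number read counts per Ensembl gene, of which 1 holds the liver libraries. According to the study and the submitters' processing notes, the authors prepared RNA libraries with a NEBNext Ultra kit, sequenced paired ends, aligned reads with HISAT2 2.2.1 and counted them with featureCounts. The notes name GRCm39 and mm10 and the study names GRCm39. The annotation release, the strandedness and the handling of multiply placed reads were not given in the sources used here.

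Identifiers were matched to a GENCODE annotation of GRCm39 (54749 of 55357 matched, with all 37 members found), and the 608 without a match took no more than 0.0330% of any library's counts. Each table was fitted alone with edgeR 4.0.16 in R 4.3.3 (filterByExpr, TMM, quasi-likelihood, treatment as the only term), with two-sided p-values under Benjamini-Hochberg adjustment across the tested genes of a table. The difference of the effects came from a 4-group edgeR model of all 12 libraries. The SE was derived from the log2 fold change and its F statistic, and the 95% interval is built from it. Alternatives used DESeq2 1.42.0, limma 3.58.1, other scalings and filters, the study's criterion, a replicate block and each replicate left out. Code was tested on simulated data. Same-group libraries differed by more than sampling noise in all 12 pairs (mean chi-square per gene at least 2.92). Levels per kb used the canonical transcript.

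The members and lists were chosen with earlier results of these data known, so no p is adjusted over a list alone. Named in full were the 8 members of lowest unadjusted p in the liver, where none was called. In the cells they were the 14 called members of lowest p with the microsomal, peroxisomal and regulator members. Of the 77 other genes those called in the liver and the 8 of lowest p in the cells were named. Further genes were named by range, by count or after their values were seen.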

Additional observations from a re-analysis of the deposited data

Results flagged for a closer look

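For 12 members the effect of esculetin differed between the cells and the liver by the test of the difference itself (edgeR, 4-group model). The difference is given as cells minus liver on the log2 scale. It was below 0 for Echs1 (-1.63), Ech1 (-1.23), Hadh (-1.06), Aldh3a2 (-1.05), Acaa1a (-0.94), Acads (-0.93), Eci1 (-0.81), Eci2 (-0.75) and Acaa2 (-0.64). It was above 0 for Slc25a20 (0.91), Pex11a (0.65) and Cpt1a (0.49). Adjusted p ran from 1.47e-05 for Echs1 to 0.0357 for Pex11a. The experiments differ in tissue, dose, route, time and lipid, which cannot be told apart.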

How the results depend on the processing

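Of the liver members 0 were called with TMM, DESeq2's scaling, upper quartile factors, library size only, a filter of 1 CPM in 3 libraries and in all 6 fits that left out 1 library (lowest 0, highest 0). The count was 5 with no filter on low counts, 2 with DESeq2, 1 with limma-voom, 2 with limma-voom and sample quality weights, 1 at an adjusted p under 0.10 and 5 under the study's criterion, against 0. All members called in the liver under any of these had lower values with esculetin. The median log2 fold change in the liver was -0.13 with library size only and ran from -0.13 (without vehicle replicate 1) to -0.0453 when 1 library was left out. Of the other pathway genes in the liver, 2 by the first fit, 0 were called with library size only, 11 with no filter, 5 with DESeq2, 1 with limma-voom, 6 with quality weights and 0 to 4 when 1 library was left out. All genes called in the liver were 11 of 12813, against 98 with DESeq2, 11 with limma-voom and 98 with quality weights. They were 0 with library size only and 339 of 22343 with no filter. In the cells the 18 called members became 10 under the study's criterion, 22 with no filter on low counts (18 lower and 4 higher, Cpt1b and Ehhadh added) and 14 to 20 when 1 library was left out. Their median ran from -0.37 (without esculetin replicate 3) to -0.25, and the other pathway genes called there from 32 to 37. All genes called in the cells were 7667 of 13277, against 8061 of 25562 with no filter. With 1 library left out they ran from 6518 (without DMSO replicate 3) to 7910 (without esculetin replicate 1). Acaa1b in the cells reversed to 0.10 without esculetin replicate 3 (-0.24 without replicate 1), and Pex11a to -0.0495 with quality weights. Of the 12 members with unequal effects 11 remained with DESeq2's scaling and 11 with limma-voom, each without 1 named in the report. The causes were not tested.

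Whether replicate numbers mark pairs of libraries was not settled. The deviations of same-numbered libraries correlated at 0.14, -0.01 and 0.10 in the liver and 0.17, -0.03 and 0.08 in the cells. Libraries numbered 1 and 3 in the liver and 1 in the cells correlated best with their own number in both groups. The other numbers did not. A fit with a replicate block called 4 liver members (Crat, Cyp4a14, Cyp4a31 and Fgf21, all lower) and 5 other pathway genes in the liver, and in the cells 20 members, with Crat and Hadha added, and 34 other pathway genes. The block raised calls over all genes too. Of the 12813 genes tested in the liver it called more than the 98 of DESeq2, against 11 in the first fit. Of the 13277 tested in the cells it called 7982, against 7667. The added members are read against this rise and were not tested against other genes. With the block the members' median was -0.06 (liver) and -0.29 (cells), and 12 members had unequal effects.

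A count of 0 limits a gene only to about 3 counts. Depth was 13752842 counts or more per library, so this is at most 0.218 CPM. The 3 libraries a group limit every comparison.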

Other observations

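Decr1 had no count in any of the 6 RAW264.7 libraries although its product serves the same spiral as Eci1, Eci2 and Ech1, which were expressed there. It was singled out after its values were seen. In the liver it had 4769, 6931 and 6627 counts in the vehicle group and 6276, 5622 and 5428 with esculetin. Its neighbours on chromosome 4 were counted in the cells, with 141 to 320 counts for Nbn and 373 to 839 counts for Osgin2, while Calb1, on the other side, had 0 counts in both tables. Of 366 liver genes at or above the level of Decr1 in the vehicle group, 76 had no count in any cell library, and of all 12813 genes tested in the liver 841 did. The cause was not tested.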
